A study of Mus musculus with 168 samples.

Results

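Red pulp macrophages of the spleen take up aged red cells, break down their heme and hand the iron back to the blood, and 7 genes tied to that work or to the clearance of dying cells are described here across sorted mouse immune cells after treatment with Janus kinase (JAK) inhibitors. The genes are Spic, Vcam1, Slc40a1, Hmox1, Axl, C1qa and Cd5l. They were chosen by name from the symbols of the platform's probe annotation, and make up 7 of the 19752 genes that the array measured with a probe set of 1 symbol. Each had 1 probe set, so no choice among probe sets was needed.

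Male C57BL/6 mice, 6 weeks old, received by gavage either vehicle (0.5% MC, in some mice at pH 3) or 1 of the 5 JAK inhibitors coded SB00513404, SB00526221, SB00526222, SB00526226 and SB00526228, for which the labels give no dose. Spleen cells were sorted as dendritic cells (DC, on FLT3), natural killer cells (NK, on NK1.1), CD4 T cells (T4), granulocytes (GN, on Ly6G) and macrophages (MF, on F4/80), and a further macrophage population came from the peritoneum. RNA of each sorted population was hybridised to 1 Affymetrix mouse gene array, with 80 animals in all. In a prolonged schedule mice received 14, 15 or 28 treatments and spleens were removed 14 to 18 h later. In a schedule called 4 h here mice received 3 treatments and spleens were removed after a further 4 h. Peritoneal cells and a few T4 arrays also came after a single treatment, early (1.5 to 6 h) or late (18 to 28 h). The first part of each sample title was taken as the experiment and the number after it as the mouse. The experiments were J2, J3, J6 and J8 in spleen, J25 in T4 and peritoneal macrophages, and J12 and J23 in peritoneal macrophages.

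The DC arrays numbered 20: 6 of vehicle, 12 of prolonged inhibitors and 2 of the 4 h schedule, in experiments J2, J3 and J6. The NK arrays numbered 27: 3 of vehicle, 19 of prolonged inhibitors and 5 of the 4 h schedule, in J2, J3, J6 and J8. All arrays of the 4 h schedule came from J2 and had no vehicle of the same schedule. They were set against vehicle of the prolonged schedule, so that the inhibitor, the number of treatments and the hour of sampling cannot be told apart in that comparison. J3 and J8 held no vehicle NK array, so 9 of the 19 prolonged NK arrays had a vehicle array of their own experiment. The arrays labelled spleen MF carried genes of peritoneal macrophages and had low levels of the defining genes of red pulp macrophages, so the tissue named by that label is in doubt. Nothing in the labels says how many cells were sorted. In sorted bulk samples, fewer cells of a type and less RNA per cell cannot be told apart. The p-values measure the spread between arrays of different mice.

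As background, Spic is the Ets-family transcription factor needed for red pulp macrophages to develop, and it is induced by heme. Heme from engulfed red cells is split by heme oxygenase 1, the product of Hmox1, and the freed iron leaves the cell through ferroportin, the product of Slc40a1, the main known cellular iron exporter. Vcam1 encodes an adhesion molecule of these macrophages. Axl (a receptor tyrosine kinase), C1qa (a chain of complement C1q) and Cd5l (a secreted scavenger protein of tissue macrophages) serve in the recognition and clearance of dying cells.

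The regions before 1 annotated transcription start of 3 of the 7 genes are shown because Spic belongs to a family of factors that bind a purine-rich core, GAGGAA. The sequences are RefSeq's, from the GRCm38.p6 build, 250 bases each, 5′ to 3′ on the gene's strand, ending at the base before the start. Of the 250 bases shown for Axl, 191 lie inside RefSeq's gene model, which begins further upstream, so that region precedes a start other than the outermost one. Capitals mark a match to GAGGAA on either strand. No promoter is shown for Vcam1, Slc40a1, Hmox1 and C1qa.
Cd5l, chr3:87357631-87357880, plus strand: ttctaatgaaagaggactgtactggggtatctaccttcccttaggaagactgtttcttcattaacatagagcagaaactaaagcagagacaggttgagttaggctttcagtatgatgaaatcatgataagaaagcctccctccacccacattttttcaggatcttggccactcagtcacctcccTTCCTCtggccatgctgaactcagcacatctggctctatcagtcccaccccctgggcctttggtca
Axl, chr7:25788734-25788983, minus strand: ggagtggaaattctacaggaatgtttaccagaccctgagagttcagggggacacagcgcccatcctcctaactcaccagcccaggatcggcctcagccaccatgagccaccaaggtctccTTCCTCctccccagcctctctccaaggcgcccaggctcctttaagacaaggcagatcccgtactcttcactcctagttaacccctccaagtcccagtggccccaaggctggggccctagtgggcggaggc
Spic, chr10:88683024-88683273, minus strand: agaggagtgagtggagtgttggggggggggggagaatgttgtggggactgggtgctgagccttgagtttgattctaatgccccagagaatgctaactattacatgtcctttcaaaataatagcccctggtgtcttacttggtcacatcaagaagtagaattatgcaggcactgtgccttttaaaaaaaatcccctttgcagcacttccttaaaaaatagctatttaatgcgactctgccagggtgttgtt
Cd5l and Axl each held 1 match, which starts at base -66 and base -130 from the start used here, and Spic's own region held none. GAGGAA was present in 23.3% of 32851 such regions of 27025 genes, so a match is common and is a description of the letters, not of a bound site. The STAT palindrome TTCNNNGAA (in 7.02% of regions) and the antioxidant response element core TGACNNNGC (in 10.2%), both searched on both strands, were absent from these 3 windows.

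The members fell into separate patterns across the sorted cells. On vehicle arrays Spic and Vcam1 were highest in DC, Slc40a1 was highest in granulocytes, and C1qa, Cd5l and Axl were highest in both macrophage populations. Hmox1 was high in granulocytes and macrophages alike. All values are log2 intensities after the authors' normalization, and a gene was called different when limma's adjusted p was under 0.05 across all genes and all 15 pairs of cell types. Of 105 member tests 67 passed, beside 52.7% of all tests over 12552 genes.

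Spic was at 7.94 ± 0.33 (SD, n = 6) in DC vehicle arrays, with a lowest value of 7.55, a median of 7.91 and a highest of 8.39. In the other 5 cell types its vehicle mean lay between 5.05 in spleen MF and 5.74 in T4, and no value there reached the lowest DC value. The difference from NK was 2.52 ± 0.18 (SE, limma adjusted p 1.7e-15), and from spleen MF it was 2.91 ± 0.14. Spic was above the array's median intensity on all 20 DC arrays and on none of the 33 arrays labelled spleen MF.

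Vcam1 followed the same order at its top, at 7.71 ± 0.42 (SD, n = 6) in DC. It was higher in DC than in NK by 1.23 ± 0.19, than in granulocytes by 0.85 ± 0.16 and than in spleen MF by 1.83 ± 0.14 (SE, limma, all called). NK, T4 and granulocytes, at 6.46, 6.84 and 6.86, were not separated by the test. Both macrophage populations were lowest, at 5.91 and 6.12.

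Slc40a1 stood at 11.86 ± 0.18 (SD, n = 5) in granulocytes, where vehicle values ran from 11.62 to 12.06. Every other cell type had a mean of 6.51 or lower. The gap was 5.35 ± 0.23 to DC and 6.44 ± 0.22 to spleen MF (SE, limma, both called). DC (6.51), T4 (6.49) and NK (6.17) did not differ beyond their spread, and both macrophage populations were at 5.47 and 5.75, below the array median on every array.

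Hmox1 was at 10.58 ± 0.24 (SD, n = 9) in peritoneal MF, 10.46 ± 0.33 (n = 8) in spleen MF and 10.01 ± 0.38 (n = 5) in granulocytes, and these neighbours did not differ by the test (adjusted p 0.15 for granulocytes against spleen MF). DC followed at 8.21 ± 0.33 (n = 6), T4 at 8.12 ± 0.76 (n = 8) and NK at 7.44 ± 0.65 (n = 3). DC exceeded NK by 0.71 ± 0.29 (SE, limma adjusted p 0.034), a call that was lost when the animal was entered as a replicate block among spleen arrays (difference 0.54).

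C1qa and Cd5l marked the macrophages, at 11.87 ± 0.65 and 11.95 ± 0.30 (SD, n = 8) in those labelled as spleen and 11.81 ± 0.68 and 12.11 ± 0.22 (n = 9) in those of the peritoneum. In DC they were at 7.03 ± 0.33 and 5.79 ± 0.29 (n = 6), lower than in spleen MF by 4.79 ± 0.25 and 6.12 ± 0.14 on the log2 scale (SE, limma, both called). C1qa did not separate DC, NK, T4 and granulocytes from each other in any of the 6 pairs. Axl was highest in macrophages, at 9.58 ± 0.51 in the peritoneum and 9.39 ± 0.79 in the arrays labelled as spleen, then 8.19 ± 0.67 in T4, 7.80 ± 0.44 in DC, 7.08 ± 0.37 in NK and 6.86 ± 0.29 in granulocytes. DC and T4 did not differ in Axl by the test (adjusted p 0.274), nor did DC and NK (0.132).

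**Figure D1:**
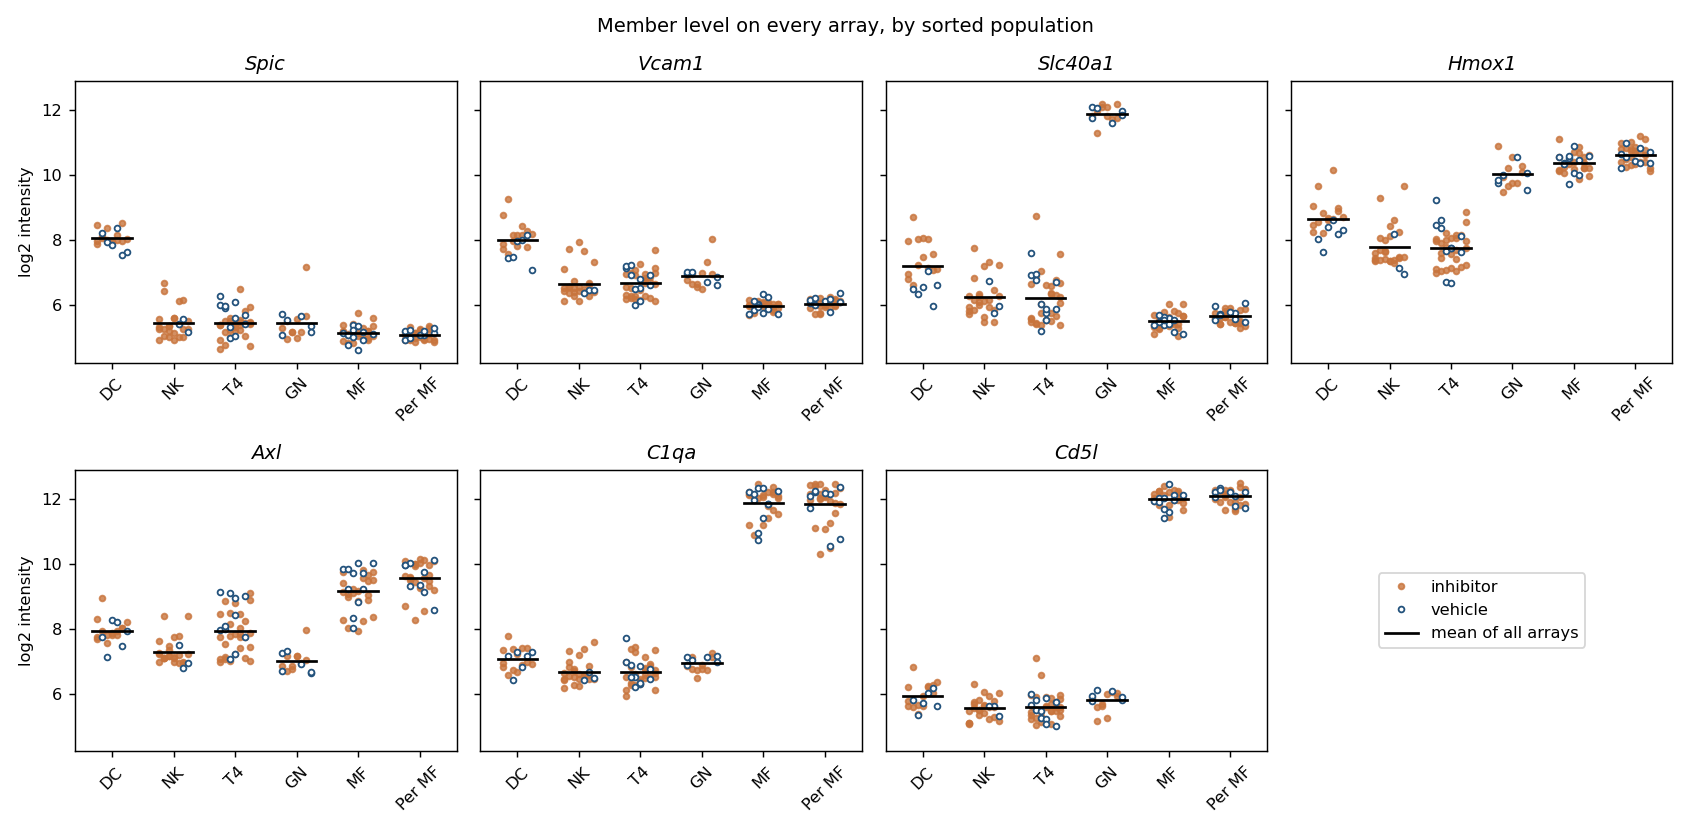
Log2 intensity of each member on every array (vertical axis) by sorted population (horizontal axis), with vehicle arrays as open circles, inhibitor arrays as filled circles and a bar at the mean of all arrays. Spic and Vcam1 stand highest in DC, Slc40a1 in GN (mean of all 16 arrays 11.90), and C1qa and Cd5l in both MF populations.

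Spleen MF and peritoneal MF did not differ in any of the 7 members (limma adjusted p between 0.194 and 0.863, sizes from 0.06 to 0.25). For this pair 634 of 12552 tested genes were called, so most other genes did not differ either. The arrays labelled spleen MF also carried the peritoneal macrophage genes Gata6, a transcription factor of large peritoneal macrophages, at 11.14 ± 0.27 (SD, n = 33), and Timd4, a receptor for dying cells, at 11.09 ± 0.23. In peritoneal MF these were at 11.17 ± 0.23 and 10.59 ± 0.32 (n = 33), and in DC at 6.18 and 6.66. With Spic, Vcam1 and Slc40a1 all below the array median on each of the 33 arrays, the defining genes of red pulp macrophages were low in the population labelled spleen MF. The levels of Gata6 and Timd4 and of these low genes go against the labelled tissue, which may be wrong. Spleen MF is used here only as the name the labels give.

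In DC after prolonged treatment, 3 members were higher in the inhibitor arrays than in vehicle, without passing the test: Slc40a1, Hmox1 and Vcam1. No gene of the 10815 tested was called in this comparison (limma, 0%, with 186 at an unadjusted p under 0.05), and 6 of the 7 members were tested, since Cd5l was below the array median on all 20 DC arrays. Slc40a1 passed this filter through 12 arrays: 1 of 6 of vehicle, 9 of 12 of prolonged inhibitors and 2 of 2 at 4 h, with neither vehicle array of J2 among them. Its entry into the test thus came mainly from inhibitor arrays, and its p-values, within J2 above all, are given as descriptions.

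Slc40a1 in vehicle DC was 6.52 and 6.34 in J2, 6.62 in J3 and 6.6, 7.05 and 5.98 in J6. After prolonged inhibitors it had a lowest value of 6.63, a median of 7.19 and a highest value of 8.09. The difference was 0.72 ± 0.20 (SE, 95% interval 0.29 to 1.14, or 1.64-fold, limma p 0.00241 and adjusted p 0.978). Within experiments it was 1.07 in J2, 0.93 in J3 and 0.36 in J6, so that the direction was shared and the size was not. The DC inhibitor arrays of J3 were all of SB00526222 and those of J6 all of SB00526221. Compound and experiment thus cannot be told apart between J3 and J6, for this gene or the next ones. A fitted difference above 0 was itself common, at 65% of the 10815 tested genes.

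Hmox1 in vehicle DC was 8.05 and 7.65 in J2, 8.33 in J3 and 8.41, 8.6 and 8.20 in J6. The prolonged arrays ranged from 8.24 to 10.16 with a median of 8.7. The difference was 0.55 ± 0.20 (SE, 1.46-fold, limma adjusted p 0.978), made of 0.87 in J2, 0.91 in J3 and -0.06 in J6. The J3 value compares 3 arrays with 1 of vehicle, and without the highest of the 3 it was 0.45. The highest value, 10.16, belonged to 1 mouse of J3 given SB00526222, whose array also stood apart from the other DC arrays in its correlation over all tested genes.

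Vcam1 in vehicle DC was 7.45 and 7.50 in J2, 7.10 in J3 and 7.99, 8.02 and 8.17 in J6, while prolonged arrays ran from 7.59 to 8.45 with a median of 8.07. The 2 groups overlapped through J6, where the inhibitor arrays were lower than vehicle by 0.25 on average. In J2 and J3 they were higher by 0.60 and 1.04. The pooled difference was 0.41 ± 0.14 (SE, 1.33-fold, limma adjusted p 0.978).

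The other members moved less. Spic differed by 0.14 ± 0.12, Axl by 0.13 ± 0.14 and C1qa by -0.05 ± 0.14 (SE, limma adjusted p 0.978 to 0.984). In J2 alone, every prolonged inhibitor array exceeded every vehicle array for Vcam1, Slc40a1 and Hmox1, as it did for 2.74% of the tested genes.

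By compound, Slc40a1 was highest over vehicle with SB00526221, at 0.92 ± 0.24 (SE, limma p 0.00129, adjusted p 0.698, n = 5), where 0.00925% of genes were called. Its 2 arrays of J2 stood at 8.04 and 8.09, and its 3 arrays of J6 at 6.82, 6.63 and 7.23, so the compound's arrays split by experiment. In J2 alone that difference was 1.64 and was called (limma adjusted p 0.000676, 8 genes or 0.074% called, against 2 vehicle arrays). Of these vehicle arrays, replicate 1 stood apart over all tested genes. With SB00526222 (n = 4) the differences were 0.75 ± 0.22 for Vcam1, 0.71 ± 0.31 for Hmox1 and 0.64 ± 0.32 for Slc40a1. The single SB00526226 array gave 0.66, 0.90 and 0.85 for the same genes and 0.49 for Spic. SB00526228 (n = 2) gave 0.34, 0.50 and 0.31. No member was called for any of the 4 compounds, and no gene at all for the last 3 (limma, 0% each).

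The compounds were compared with each other in 6 pairs at the prolonged schedule, with p-values adjusted over the pairs and all genes. No gene was called (limma, 0%), and the lowest unadjusted p among 36 member tests was that of Vcam1, lower with SB00526221 than with SB00526222 by 0.64 (95% interval of the difference -1.17 to -0.10, p 0.0216, adjusted p 1.0). For Slc40a1 the same pair differed by 0.28 (interval -0.48 to 1.03) and for Hmox1 by -0.35 (interval -1.09 to 0.38). Each of these intervals is wide enough to hold a difference of more than 2-fold. Between experiments, adjusted for compound, no member differed by the test in DC (adjusted p 0.505 or higher, beside 0.197% of tests called), and the lowest p was that of Vcam1, 0.56 ± 0.25 higher in J6 than in J3.

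The 2 DC arrays of the 4 h schedule, 1 mouse for each of 2 compounds, held the highest DC value of Vcam1, Slc40a1, Axl, C1qa and Cd5l. Vcam1 stood at 8.77 with SB00526222 and 9.29 with SB00526226, above all 6 vehicle arrays, whose highest was 8.17, and above all 12 prolonged arrays. Slc40a1 stood at 7.98 and 8.7, Hmox1 at 9.06 and 9.67, and Axl at 8.32 and 8.96. C1qa was at 7.35 and 7.79 and Cd5l at 6.21 and 6.84, each above every vehicle array by a narrower margin. Spic was at 8.47 and 8.14, of which only the first exceeded the highest vehicle value of 8.39. Both arrays thus exceeded every vehicle array in 5 of the 6 tested members and in the untested Cd5l, which held for 9.91% of the tested genes.

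In the fit over all DC arrays the 4 h arrays exceeded vehicle by 1.61 ± 0.35 for Slc40a1 (SE, 3.05-fold, limma adjusted p 0.752), 1.40 ± 0.24 for Vcam1 (2.63-fold, adjusted p 0.222), 1.27 ± 0.34 for Hmox1, 1.03 ± 0.24 for Axl and 0.61 ± 0.24 for C1qa (adjusted p 0.808 for each). No gene passed (limma, 0%, with 570 at an unadjusted p under 0.05), although 5 of the 6 members had an unadjusted p under 0.05. Within J2, the experiment that held both arrays and 2 vehicle arrays, the differences were 1.92 for Slc40a1 (limma adjusted p 0.000109), 1.56 for Vcam1 (0.0041) and 1.51 for Hmox1 (0.0041), and these 3 were among the 8 genes called (0.074%). Axl (1.20, adjusted p 0.118) and C1qa (0.77, adjusted p 0.778) were not called there. Of the 2 vehicle arrays of J2, replicate 1 stood apart over all tested genes. Their mean was 7.47 for Vcam1, 7.85 for Hmox1 and 6.43 for Slc40a1, against 7.71, 8.21 and 6.51 over all 6 vehicle arrays.

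The 4 h arrays were also compared with prolonged arrays of the same compounds, SB00526222 (n = 4) and SB00526226 (n = 1), which share no mice with them. Each compound was weighted by its number of 4 h arrays, and prolonged SB00526221 and SB00526228 did not enter the difference. The 4 h arrays were higher by 0.87 ± 0.37 for Slc40a1, 0.75 ± 0.26 for Axl and 0.69 ± 0.26 for Vcam1. They were higher by 0.60 ± 0.25 for C1qa and 0.47 ± 0.36 for Hmox1, and differed by -0.10 ± 0.21 for Spic (SE, limma adjusted p 1.0 for each of these members). No gene was called (0%, with 267 at an unadjusted p under 0.05). Both 4 h arrays exceeded all 6 prolonged inhibitor arrays of J2 in Vcam1, Hmox1 and Axl, as for 4.13% of genes. The comparisons of 4 h and of prolonged inhibitors with vehicle share the same vehicle arrays, so their values stand side by side and are not independent.

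**Figure D2:**
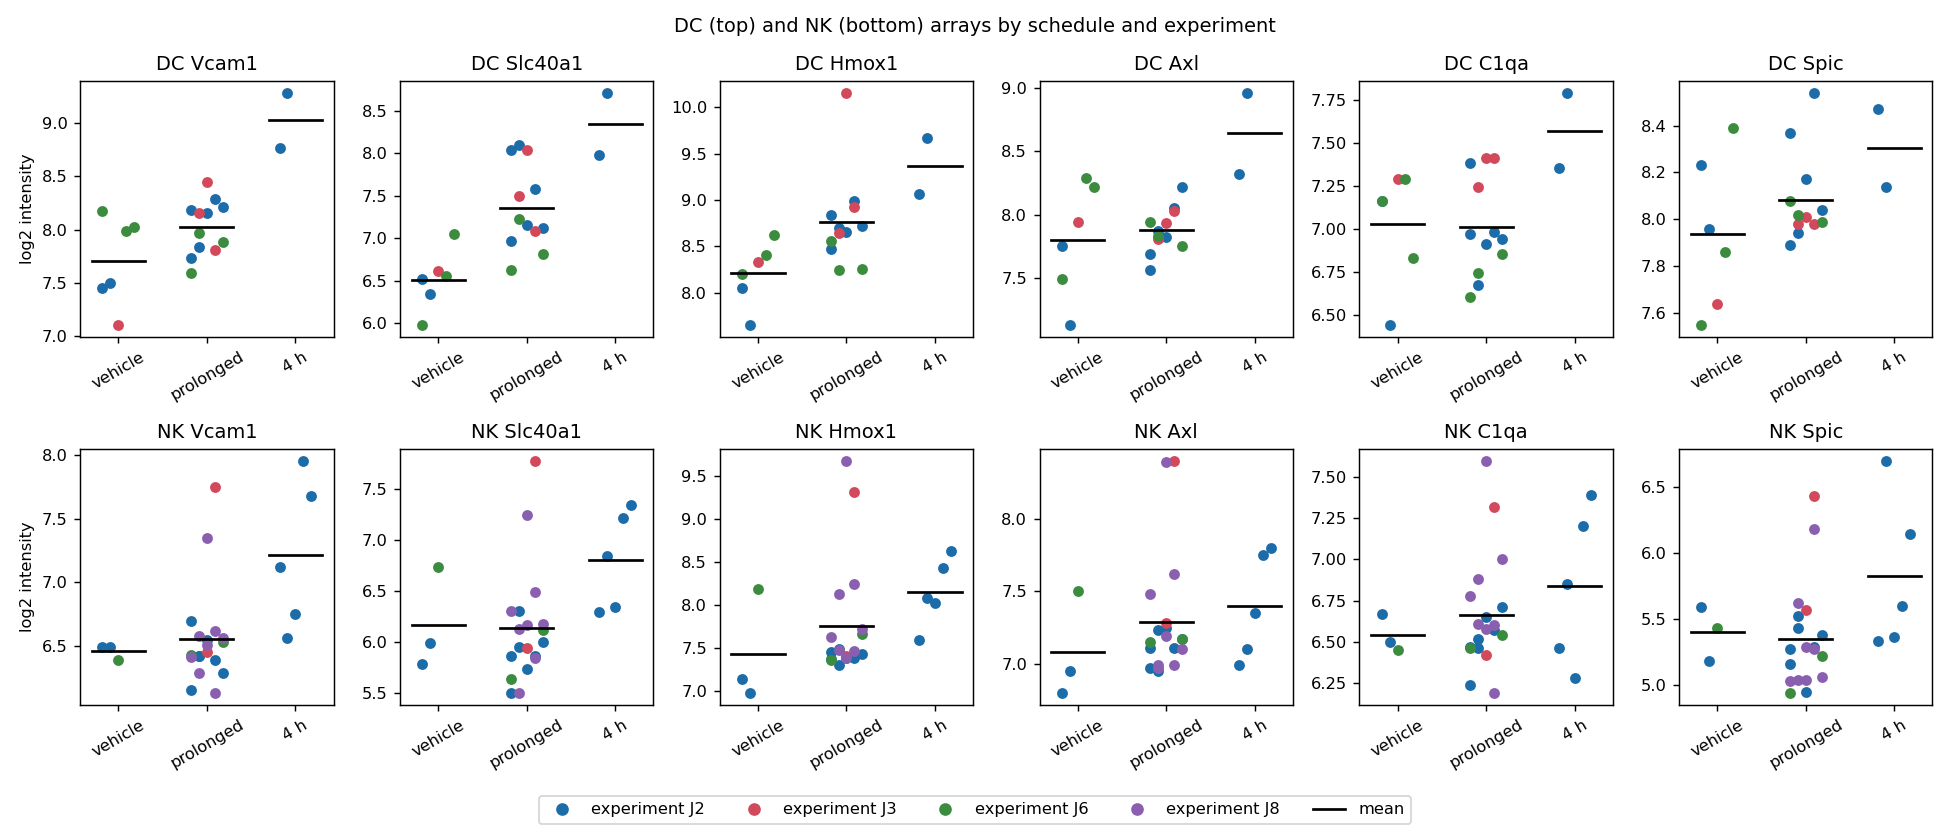
Log2 intensity (vertical axis) of 6 members on DC arrays (top row) and NK arrays (bottom row) by schedule (horizontal axis), 1 point per array coloured by experiment, with a bar at each mean. In DC the 2 points at 4 h lie above all vehicle points for Vcam1, Slc40a1, Hmox1, Axl and C1qa, and in NK 2 prolonged points at 9.31 and 9.68 in Hmox1 lie above the rest.

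In NK, prolonged treatment left no member different from vehicle by the test, and the 4 h schedule again held higher values of Vcam1, Slc40a1 and Hmox1. Of the 7 members 5 were tested among 10957 genes. Spic and Cd5l were below the array median on all 27 arrays, and Vcam1 and C1qa passed through 5 arrays and Slc40a1 through 4, so these 3 members entered the test through few arrays. For Vcam1 these were 3 arrays at 4 h and 2 prolonged ones, for Slc40a1 2 and 2, and for C1qa 2 and 3, with no vehicle array and no prolonged array of J2. A filter passed through the arrays where a gene is high favours a difference, so the p-values of these members at 4 h, within J2 above all, are descriptions.

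Prolonged differences from vehicle in NK were -0.26 ± 0.31 for Slc40a1, -0.03 ± 0.21 for C1qa, -0.02 ± 0.37 for Hmox1, 0.02 ± 0.23 for Axl and -0.00 ± 0.22 for Vcam1 (SE, limma adjusted p 0.997 to 0.999). No gene was called (0%, with 418 at an unadjusted p under 0.05). The 3 vehicle arrays were at 7.14, 6.98 and 8.19 for Hmox1, so the single vehicle array of J6 exceeded both of J2 by more than 1 log2 unit. By experiment, Hmox1 was 0.34 higher than vehicle in J2, where every prolonged array exceeded every vehicle array (as for 4.93% of genes), and 0.68 lower in J6. Every compound's difference was at most 0.28 in size for each of the 5 members, none with an unadjusted p under 0.05, beside 0% of genes called for SB00526221, SB00526222 and SB00526226 and 0.0456% for SB00526228. None of 30 member tests between pairs of compounds was called (0.00304% of all tests).

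2 prolonged NK arrays stood far above the others. A J3 mouse given SB00526222 had Hmox1 at 9.31, Axl at 8.40, Slc40a1 at 7.78 and Vcam1 at 7.75, and a J8 mouse given SB00526221 had 9.68, 8.39, 7.25 and 7.35. The remaining 17 prolonged arrays did not exceed 8.25 in Hmox1 or 6.70 in Vcam1. The array of the J8 mouse also stood apart over all tested genes and the array of the J3 mouse did not. Between experiments, adjusted for compound, J3 exceeded J2 by 1.24 ± 0.54 in Hmox1, 1.05 ± 0.45 in Slc40a1 and 0.78 ± 0.33 in Axl (SE, limma adjusted p 0.277 to 0.291), where 2.39% of tests were called. J3 held 2 NK arrays. Without the other one, replicate 2 of prolonged SB00526222, 5 of the 30 member tests between experiments were called, but J3 was then only that high J3 mouse, assumed to vary like the other groups.

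The 5 NK arrays of the 4 h schedule were at 7.12 and 6.6 (SB00526221), 6.75 (SB00526222) and 7.96 and 7.68 (SB00526226) for Vcam1, against 6.49, 6.49 and 6.39 in vehicle. Every 4 h array exceeded every vehicle array in Vcam1, as in 248 of the 10957 tested genes. Against the 2 vehicle arrays of J2 alone, a comparison chosen after the values were seen, every 4 h array was higher in Vcam1, Slc40a1, Hmox1 and Axl, as in 9.8% of the tested genes. Slc40a1 was at 6.29 and 6.84, 6.34, and 7.22 and 7.34 in the same order, and its vehicle values of 5.78, 5.99 and 6.74 overlapped them. Hmox1 was at 7.60 and 8.08, 8.02, and 8.43 and 8.6. The 2 arrays of SB00526226 were the highest for each of these genes.

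Against vehicle the 4 h differences in NK were 0.83 ± 0.41 for Hmox1, 0.73 ± 0.25 for Vcam1 and 0.72 ± 0.35 for Slc40a1 (SE, limma adjusted p 0.466, 0.247 and 0.459), where 13 genes or 0.119% were called and no member was. Prolonged SB00526221, SB00526222 and SB00526226, weighted by their number of 4 h arrays, served as the prolonged side, since SB00526228 had no 4 h array. Against them the 4 h differences were 0.96 ± 0.30 for Slc40a1, 0.85 ± 0.36 for Hmox1 and 0.70 ± 0.21 for Vcam1 (limma adjusted p 0.118, 0.309 and 0.107). Here 161 genes or 1.47% were called. Within J2 alone these last differences were 0.89, 0.73 and 0.72 (limma adjusted p 0.0243, 0.0197 and 0.0377, 0.621% of genes called). Of these, Hmox1 was above the array median on all 5 arrays at 4 h and all 7 prolonged ones, whereas Slc40a1 and Vcam1 were above it on none of the prolonged ones. In J2 alone Hmox1 was also called against the 2 vehicle arrays, at 1.09 (adjusted p 0.0138, 0.219% of genes called). All 5 arrays exceeded all 7 prolonged arrays of J2 in Hmox1, which held for 0.319% of genes. Vcam1 also passed over all experiments without replicate 6 of prolonged SB00526221, which is the J8 mouse above (limma adjusted p 0.0482). It passed too when either J3 array was left out, replicate 2 or 3 of prolonged SB00526222, of which replicate 3 is the J3 mouse above. These are the same fit, because the J3 array that remains is taken up by its own experiment term. Vcam1 had entered the test only through arrays at 4 h and the high J3 and J8 mice, so its p-values are descriptions. Axl and C1qa were not called in any of these NK comparisons.

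**Figure D3:**
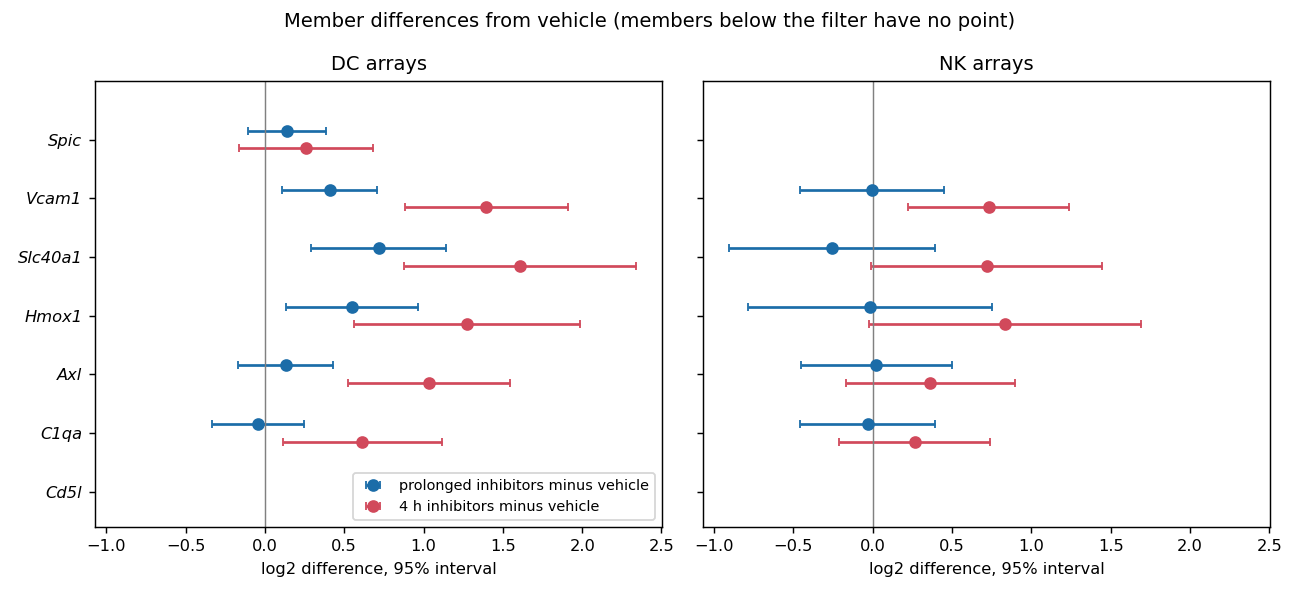
Difference from vehicle on the log2 scale (horizontal axis, point with 95% interval from limma) for each member (vertical axis) in DC (left) and NK (right), after prolonged treatment and in the 4 h schedule. In DC the 4 h interval lies above 0 for Vcam1, Slc40a1, Hmox1, Axl and C1qa, and no member was called after adjustment over all genes.

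The difference between DC and NK in the response to prolonged treatment was tested directly in a joint fit of 10140 genes with the animal as a random block. Slc40a1 differed most, with a response 1.01 ± 0.33 higher in DC than in NK (SE, limma p 0.00436, adjusted p 0.993). Vcam1 and Hmox1 differed by 0.43 ± 0.23 and 0.57 ± 0.36. No gene was called (0%, with 368 at an unadjusted p under 0.05), so no member's response was shown to be particular to DC.

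DC and NK arrays came from the same mouse in 14 animals, which allowed the members to be followed between sorts. Hmox1 in DC went with Hmox1 in NK, with Pearson's r 0.86 (permutation p 0.0002, adjusted over the 7 members 0.0014) and Spearman's rho 0.73 (adjusted p 0.0168). Without the 2 animals farthest from the median DC value r fell to 0.53 (n = 12), and within J2 it was 0.93 (n = 9). Vcam1 gave r 0.74 (permutation p 0.00941, adjusted 0.0329), rho 0.51 (adjusted p 0.159), 0.51 without 2 animals and 0.80 within J2. Axl gave r 0.51 (permutation p 0.0794, adjusted 0.131) and rho 0.79 (adjusted p 0.00917), and Slc40a1 r 0.50 (permutation p 0.0698, adjusted 0.131) and rho 0.29. C1qa and Cd5l had r of 0.47 and 0.41, and Spic had r of -0.11. Both schedules, several compounds and several experiments are pooled here, and the J3 mouse given SB00526222 was the highest of the 14 for Hmox1 in both sorts. The p-values were adjusted over the 7 members only, and no share of all genes is given beside them, so they are descriptions.

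**Figure D4:**
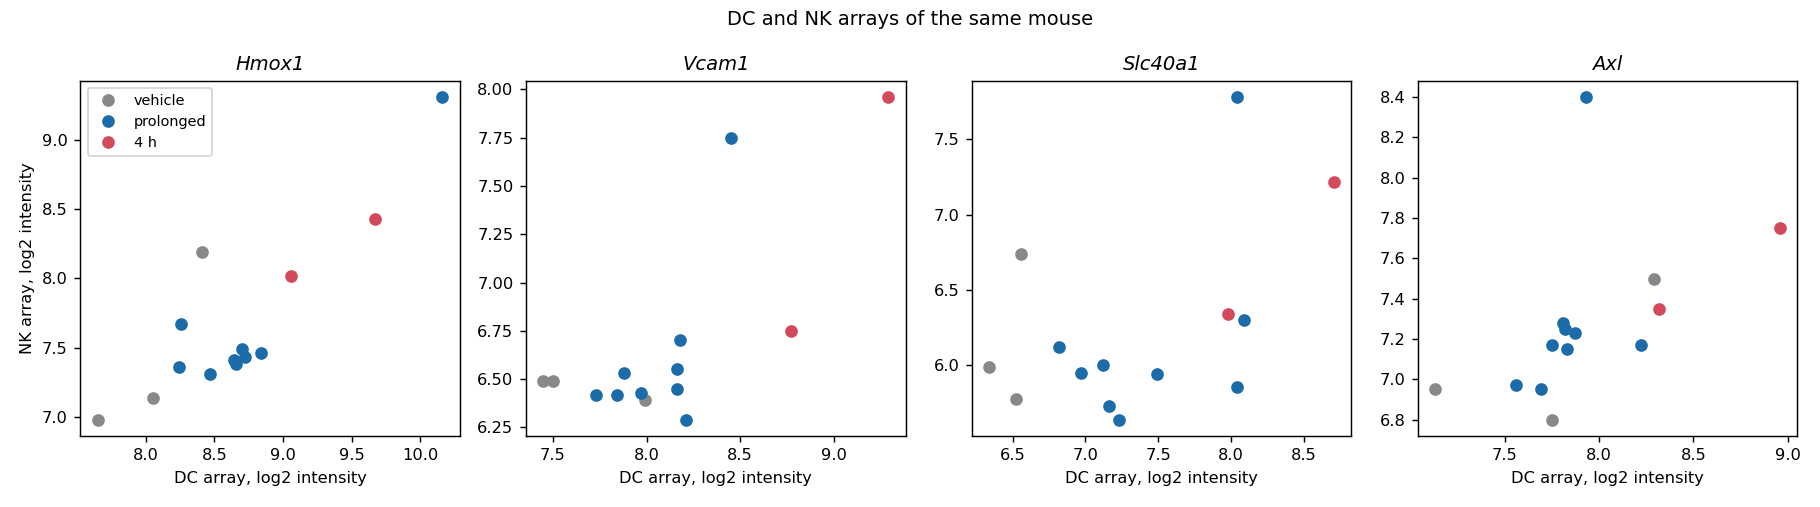
Log2 intensity in the NK array (vertical axis) against that in the DC array of the same mouse (horizontal axis) for 4 members, 1 point per mouse (14 mice), coloured by schedule. The J3 mouse given SB00526222 lies at 10.16 and 9.31 in Hmox1, at the upper right. The 2 mice at 4 h lie at 9.67 and 8.43 and at 9.06 and 8.02, and in NK the latter is below the J6 vehicle mouse at 8.19.

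In DC and NK, members other than Spic varied together across arrays. Over the 20 DC arrays the 15 pairs without Spic correlated at 0.45 to 0.79 (median 0.61), while the 6 pairs with Spic correlated at 0.04 to 0.51 (median 0.31). Over the 27 NK arrays the ranges were 0.54 to 0.88 (median 0.74) and 0.27 to 0.66 (median 0.44). In the other sorts the median over pairs without Spic was lower and their range wider. That range was -0.15 to 0.87 in T4 and -0.24 to 0.74 in granulocytes. In peritoneal MF it was -0.33 to 0.85 and in spleen MF -0.45 to 0.83. The T4 pairs among Vcam1, Slc40a1 and Hmox1 correlated at 0.67 to 0.87. The median without and with Spic was 0.43 and 0.57 in T4, 0.19 and 0.31 in granulocytes, 0.03 and -0.01 in peritoneal MF, and -0.17 for both in spleen MF. These arrays share schedules, compounds and experiments, so the correlations are descriptions.

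Macrophage markers moved with the members. The list of F4/80-sort markers (Adgre1, Csf1r, Cd68, Fcgr1 and Mertk) correlated with the mean of Vcam1, Slc40a1, Hmox1, Axl and C1qa at 0.88 over the 27 NK arrays and at 0.53 over the 20 DC arrays. A wider list of 27 red pulp and splenic macrophage genes, which holds these 5, correlated with that mean at 0.77 in NK and 0.73 in DC. The mean log2 level of the F4/80-sort list in NK ran from 6.36 to 6.60 in vehicle, 6.21 to 7.21 in prolonged and 6.46 to 7.05 in 4 h arrays, with 2 of the 5 genes above the array median on 3 or more NK arrays. The J3 and J8 mice with high members were both at 7.21. In DC the same list ran from 8.7 to 9.12 in vehicle, 8.86 to 9.27 in prolonged and 9.41 to 9.42 in the 2 arrays at 4 h. The part of either list in the member values was not tested.

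Markers of other cells were followed in the same way. In NK the 7 monocyte markers, 5 of them above the array median on 3 or more arrays, correlated with the mean of the 5 members at 0.54, and at 0.57 with Hmox1 and with Cd5l. Their mean ran from 7.64 to 7.73 in vehicle, 7.31 to 8.09 in prolonged and 7.48 to 7.83 in 4 h arrays. The 6 granulocyte markers, none above the array median on 3 NK arrays, correlated at 0.36, and at 0.51 with C1qa. In DC these 2 lists correlated with the members at 0.29 and 0.19. Their part in the member values was not tested.

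The mean of 10 erythroid genes was 6.28 in vehicle, 6.23 in prolonged and 6.21 in 4 h DC arrays, and 6.69, 6.70 and 6.71 in NK arrays. DC markers on NK arrays varied widely, from 6.87 to 9.36, with a correlation of -0.06 with the mean of the 5 members. The DC arrays carried Flt3 at 11.74 ± 0.27 (SD, n = 20) and the NK arrays Klrb1c, which encodes NK1.1, at 12.09 ± 0.27 (n = 27), the genes of the markers each was sorted on. By correlation over all tested genes 3 DC arrays stood apart (vehicle replicates 1 and 6 and prolonged SB00526222 replicate 3) and 3 NK arrays did (prolonged SB00526221 replicates 5 and 6 and prolonged SB00526226 replicate 4). Without them the 4 h difference in DC was 1.33 for Vcam1, 1.41 for Slc40a1 and 1.17 for Hmox1 with no call. In NK against prolonged inhibitors Vcam1 (0.67, limma adjusted p 0.0433) and Slc40a1 (0.96, adjusted p 0.0426) then passed. Both genes had entered the NK test only through arrays at 4 h and the high J3 and J8 mice. The J8 mouse is among the arrays left out here, so these p-values are descriptions.

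**Figure D5:**
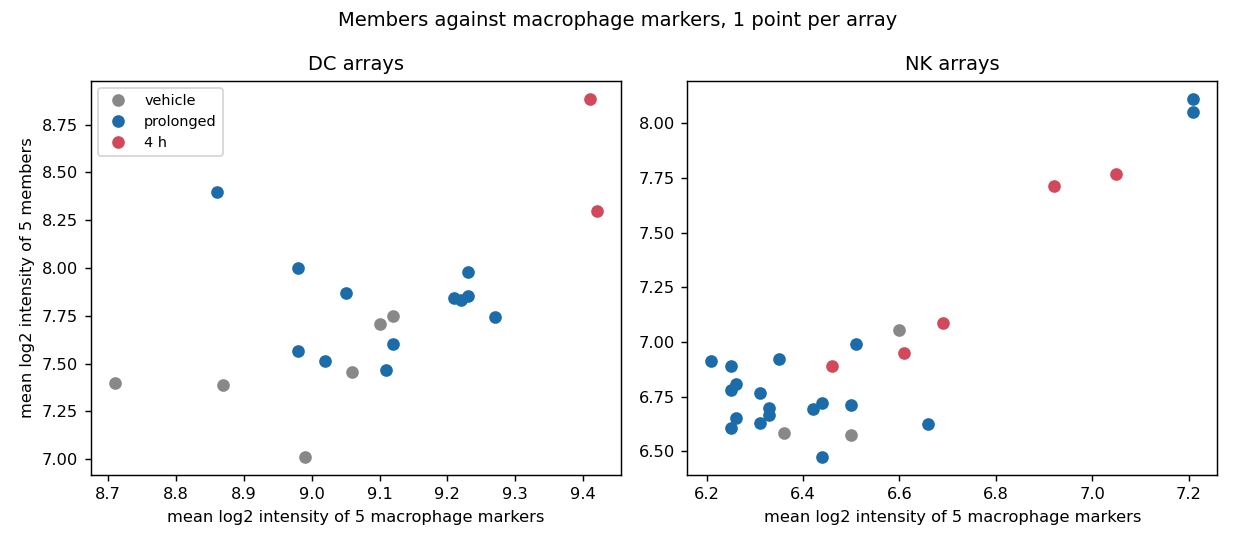
Mean log2 intensity of 5 members (Vcam1, Slc40a1, Hmox1, Axl and C1qa, vertical axis) against that of 5 macrophage markers (horizontal axis) on each DC array (left) and NK array (right), coloured by schedule. In NK the points lie along 1 line (correlation 0.88) that ends in 2 prolonged arrays at 7.21, and in DC they scatter more (0.53).

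The genes of 4 related pathways, none of them a member, showed no call after prolonged treatment in DC. Most of their values lay above 0, as did 65% of the 10815 tested genes. Of 23 tested genes of iron and heme handling 20 were above 0, with a median of 0.11 beside 0.045 for all genes. Lcn2, an iron-siderophore binding protein, was at 0.88 ± 0.46, Flvcr1, a heme exporter, at 0.36 ± 0.19, and Slc25a37, the mitochondrial iron importer, at 0.27 ± 0.13 (SE, limma adjusted p 0.978). Of 20 red pulp and splenic macrophage genes 14 were above 0 (median 0.11), as were 13 of 15 for apoptotic cell uptake and C1q (0.13) and 7 of 9 for LXR and lipid handling (0.11). Of 16 interferon-stimulated genes, which lie downstream of JAK signalling, 1 was above 0 and the median was -0.36, also with no call.

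In the 4 h schedule the DC medians were 0.16 for iron and heme, 0.14 for red pulp macrophage genes, 0.22 for apoptotic cell uptake and 0.34 for LXR and lipid genes, beside 0.041 for all genes. The other C1q chains stood near C1qa: C1qb at 1.01 ± 0.39 and C1qc at 1.00 ± 0.25. Mertk, a receptor tyrosine kinase of the family of Axl, was at 0.78 ± 0.22, Apoe, a lipoprotein, at 0.78 ± 0.27 and Abcg1, a cholesterol exporter, at 0.78 ± 0.33 (SE, limma adjusted p 0.808). Nfe2l2, which encodes the NRF2 factor that drives Hmox1 under oxidative stress, was at -0.55 ± 0.21 (adjusted p 0.808).

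In NK the medians after prolonged treatment were -0.09 for iron and heme, -0.04 for red pulp macrophage genes, -0.09 for apoptotic cell uptake and -0.14 for LXR and lipid genes, with no call. Between 4 h and prolonged inhibitors they were 0.05, 0.25, 0.12 and 0.26, beside 0.008 for all genes. There 1 gene of these lists passed: Calr, the chaperone calreticulin, lower at 4 h (-0.56 ± 0.12, limma adjusted p 0.0192). Tfrc, the transferrin receptor for iron uptake, was at -0.65 ± 0.19 (adjusted p 0.0971), Abca1, a cholesterol exporter, at 0.58 ± 0.17 (0.097) and Csf1r, the macrophage growth factor receptor, at 0.66 ± 0.23 (0.193).

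Among all tested genes, those with the pattern most like a member were named by their correlation over the arrays of a sort. In DC Hmox1 lay nearest to Fcna (0.85), Fos (0.83) and Igf1 (0.80), Vcam1 to Mertk (0.78), Abcc3 (0.77) and Jun (0.74), and Axl to C1qc (0.82). C1qa lay nearest to Fcna (0.81) and C1qc (0.76), Slc40a1 to Wdfy1 and Zscan20 (0.76 each), and Spic to Zscan29 (0.80). In NK Hpgd, which encodes a prostaglandin-degrading enzyme, lay nearest to Slc40a1 (0.90) and Hmox1 (0.89). Over all 47 DC and NK arrays, each sort centred on its own mean, the mean of the 5 members was most like C1qc (0.87), C1qb (0.82), Jun (0.78), Fcna (0.77) and Hpgd (0.72).

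In the other sorted cells no member was called against vehicle in the comparisons fitted, which were prolonged and 4 h in spleen cells and early, late and prolonged in peritoneal MF. In spleen MF, where 4 members were tested, the prolonged differences ran from -0.16 (Axl) to 0.15 (C1qa) (limma, 0.00908% of genes called). These small pooled values average experiments of opposite sign. Axl stood over vehicle by 0.40 and 1.01 for J2 and J3, while J6 and J8 gave -0.78 and -0.80. For C1qa the same order gave 0.83 and 0.88, then -0.05 and -0.47. The split between experiments was not tested. In the 4 spleen MF arrays at 4 h C1qa, Cd5l and Hmox1 were at 0.40 ± 0.32, 0.33 ± 0.19 and 0.30 ± 0.16 (adjusted p 0.626 to 0.661, 0.0182% called). J2 held 1 vehicle array of spleen MF, with C1qa at 10.95, and the 4 h mean of 11.82 lay near the 11.87 of all 8 vehicle arrays.

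In T4 all 5 tested members were below vehicle after prolonged treatment, Hmox1 by the most (-0.33 ± 0.14, p 0.0264, adjusted p 0.975, 0% called), and the fitted 4 h differences ran from -0.11 to 0.10 (0.00892% called). Within experiments the T4 values differed in sign. After prolonged treatment Hmox1 was at 0.53 over vehicle in J2 and at -0.84 in J8. At 4 h the mean difference from the single vehicle array of J2 was 0.35 in Vcam1, 0.44 in Slc40a1 and 0.43 in Hmox1. It was 0.09 in Axl and 0.01 in C1qa. That vehicle array had Hmox1 at 6.72, and the 4 h mean of Hmox1, 7.15, lay below the 8.12 of all 8 vehicle arrays.

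In granulocytes Slc40a1, at its highest level of any cell, differed by 0.16 ± 0.19 after prolonged treatment and by -0.16 ± 0.28 at 4 h (SE, limma adjusted p 0.838 and 0.928, beside 0.0273% and 0.0455% of genes called). Hmox1 at 4 h was at 0.42 ± 0.24 and C1qa at -0.43 ± 0.23 (adjusted p 0.797). In peritoneal MF the 4 tested members were within 0.19 of vehicle early (0.0644% of genes called), and late values ran from -0.27 to 0.00 (0% called). After prolonged treatment C1qa was at 0.53 ± 0.40 and the others within 0.08 (adjusted p 0.997 to 1.0, 0% called).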

How the data were processed

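The authors deposited, for 168 arrays, linear intensity values of 24922 probe sets, made with Affymetrix Power Tools and the RMA method (background correction, quantile normalization and summary of probes) per the submitters' processing notes, for which the sources used here state neither version nor genome build. Array medians lay between 119.5 and 142.3, and the number of arrays limits the precision. Of the probe sets 21425 had 1 gene symbol, 1399 had several and 2098 had no line in the platform annotation. Where a gene had several probe sets, the one of highest mean stood for it (19752 genes), and log2 of the deposited intensity was taken.

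Within each sorted population, genes above the array's median on at least 3 arrays were fitted with limma 3.58.1 (R 4.3.3) with group and experiment as terms, two-sided, and Benjamini-Hochberg adjustment over all tested genes at 0.05. A group is a compound and schedule, and pooled inhibitor values average the groups, each weighted by its number of arrays. The comparison of 4 h with prolonged inhibitors used only compounds present in both schedules, weighted by their number of 4 h arrays. Cell types were compared on 39 vehicle arrays, and DC with NK responses in a joint fit, with the animal as a random block (consensus correlation 0.13 and 0.347). Same-mouse correlations used permutation tests in scipy 1.17.1. The fits were tested on simulated data.

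Other genes were named as the 3 with the lowest p of each list in the DC and NK comparisons and the 3 with the highest correlation to a member (10 for the mean of the 5 members). The members and lists were chosen with earlier results of these data known. Alternatives were another normalization, no filter, the mean of probe sets, array weights, other experiment terms, J2 alone, and leaving out arrays. The value table shares no number that pairs groups, since replicates were numbered in accession order. Gene symbols were matched to RefSeq for 21347 probe sets.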

Additional observations from a re-analysis of the deposited data

Results flagged for a closer look

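Single arrays stood far from the others of their group in 11 of 133 combinations of a group of 4 to 8 arrays and a member (8.27%), where chance gives about 1 in 20. In NK after prolonged SB00526222 the J3 mouse had the highest Vcam1 at 7.75 (the others 6.41 to 6.6), Slc40a1 at 7.78 (5.73 to 6.30) and Hmox1 at 9.31 (7.38 to 7.72). In NK after prolonged SB00526221 the J8 mouse had Hmox1 at 9.68 (7.36 to 7.67). The T4 array of that same J8 mouse had the highest Vcam1 at 7.72 (the others 6.15 to 6.6) and Slc40a1 at 7.58 (5.41 to 5.67) of its group.

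Low outlying values were seen as well. Cd5l was lowest at 11.92 in 1 array of peritoneal MF early after SB00513404 (the others up to 12.36), at 11.44 in spleen MF after prolonged SB00526222 (the others from 11.96), at 5.40 in DC after prolonged SB00526221 (5.60 to 5.67) and at 5.25 in NK after prolonged SB00526226 (5.58 to 5.65). C1qa was lowest at 10.49 in peritoneal MF late after SB00526222 (11.88 to 12.05).

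At 4 h C1qa lay above its own experiment's vehicle mean on both DC arrays (mean difference 0.77) and on all 4 spleen MF arrays (0.88), and below it on all 4 granulocyte arrays (-0.43). These differ by 1.20 and 1.31, and the difference was not tested. The vehicle of that experiment is 1 array in spleen MF, at 10.95 against 11.87 over all 8 vehicle arrays, and 1 in granulocytes, at 7.16 against 7.05 over 5. The 4 h mean in spleen MF was 11.82, so there the direction rests on that 1 vehicle array. The single granulocyte array of vehicle at pH 3, which enters no comparison, had Slc40a1 at 12.11, above the highest plain vehicle array at 12.06.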

How the results depend on the processing

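The count of members called kept its value of 0 under every alternative in most inhibitor comparisons. The exceptions in DC were the 4 h schedule against vehicle, with 3 members under array weights (Vcam1 1.22, Hmox1 1.09 and Axl 0.87) and 3 in J2 alone, prolonged SB00526221, with 1 in J2 alone, and experiments, with 1 under array weights. In NK, 4 h against vehicle gave 1 in J2 alone, and 4 h against prolonged inhibitors gave 3 in J2 alone, 2 under array weights, 2 with the arrays standing apart left out and 1 without an experiment term. Leaving out arrays one at a time gave 0 to 1 members for that comparison, 0 to 5 between NK experiments, where 5 came without prolonged SB00526222 replicate 2, and 65 to 68 of the cell type differences. J2 alone uses fewer arrays and compares mice of 1 experiment. Slc40a1 in DC and NK and Vcam1 in NK entered the tests mainly or only through inhibitor arrays, so their calls are descriptions. The cause of the other changes was not tested.

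With the animal as a replicate block among spleen arrays, which leaves 70 tests in place of 105, 43 cell type differences were called. No paired analysis of inhibitor and vehicle was possible because each mouse received 1 treatment and replicates carry no number of their own. No result that was called changed sign. Among 2485 alternative values of the uncalled differences 155 changed sign, none of them with a main size over 0.42, and 19 were called. Of 957 alternatives of the 67 called cell type differences 945 were called too. The small groups, 2 DC and 5 NK arrays at 4 h and 3 NK vehicle arrays, limit what could be detected, as do Spic and Cd5l levels below the array median in NK.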

Other observations

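Some arrays enter no comparison of inhibitors with vehicle. The 5 T4 arrays taken early or late after a single treatment, 1 of them of vehicle, which counts among the 8 vehicle arrays in the comparison of cell types, had Hmox1 between 7.71 and 8.13, Axl between 7.44 and 7.77 and Slc40a1 between 6.26 and 6.92. The 3 spleen MF arrays of vehicle at pH 3 had C1qa between 11.43 and 11.86 and Cd5l between 11.59 and 12.14, and the 3 such T4 arrays had Axl at 7.22, 8.96 and 9.10.

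Members differed in how much of their variance lay between experiments within a cell type, over all arrays and with no adjustment for compound or schedule. In T4 the share was 85.9% for Axl, 63.2% for Hmox1 and 56.4% for Vcam1. For Hmox1 it was 64.5% in peritoneal MF and 52.2% in spleen MF. In DC it was 0.0549% for Axl and 22.5% for Slc40a1.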
